A study of Mus musculus with 3 samples.

Results

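The Krüppel-like factor genes described here are Klf2, Klf3, Klf4, Klf5, Klf6, Klf7, Klf9, Klf10, Klf13 and Klf15, and their members in the data are the GATA4 peaks that the deposited HOMER annotation names for one of these 10 genes. There were 54 such peaks among 50869. The peaks map binding of the transcription factor GATA4 in stomach mucosa of adult mice aged 10 to 12 months. The strain is labelled G4fb/fb R26 Bira/Bira, shared by every library, and GATA4 with a Flag and biotin tag was pulled down on streptavidin beads. The data comprised 2 pull-down libraries and 1 input library, sequenced from chromatin with no pull-down. The authors' caller pooled both pull-downs into 38770530 filtered tags against 23023152 input tags, so no value per replicate exists and no test between samples was possible. Pull-downs from mice without the tag were not analysed here, and the tissue could not be checked against marker genes because the files hold no expression values.

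Krüppel-like factors, with the related Sp factors, are zinc finger proteins that bind GC boxes and CACCC boxes in promoters and enhancers. Some members activate transcription, while others recruit the corepressors CtBP or Sin3a. In gut epithelia Klf4 is known for differentiating cells and Klf5 for proliferating ones. GATA4 is a zinc finger factor of endoderm and heart that binds GATA sites.

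Each of the 10 Klf genes had a GATA4 peak near its start site, and the strongest were at Klf5, Klf7, Klf4 and Klf13. All 10 genes had a peak centred within 1 kb of the transcription start site (TSS), called a start-site peak whether or not it covered the TSS, against 57.4% of 21031 protein-coding genes. The 10 genes were picked from a larger family with earlier results known. With the 7 other Klf genes listed below included, 14 of 17 had a peak that near, or 82.4%. The fold enrichment of the strongest start-site peak, which is the authors' ratio of pooled pull-down to local input, ranged from 4.72 at Klf15 to 11.02 at Klf5, with a median of 7.19. Among the 12077 protein-coding genes with such a peak the median was 5.68 (quartiles 4.59 and 6.93), and 7 of the 10 Klf genes lay above that median. A start-site peak of at least 5-fold was present at 8 of 10, all but Klf2 and Klf15, against 37.7% of protein-coding genes. This share too rests on the choice of the 10. Among the other Klf genes, Klf11 and Klf16 also had such a peak, while Klf14 (4.69-fold), Klf8, Klf12 and Klf17 did not. Klf1 had a start-site peak 0.883 kb downstream of the TSS, whose fold is not given here. The strongest Klf1 peak (5.16-fold) lay 1.30 kb downstream, outside the 1 kb limit.

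The 54 peaks were spread over start sites, gene bodies and distant intergenic sequence. Of these, 12 were centred within 1 kb of a TSS (22.2%, against 31.7% of all peaks), 14 at 1 to 10 kb and 28 farther away. Intergenic sequence held 31 of them (57.4%, against 31.2% of all peaks), introns 8 (14.8%, against 31.3%) and promoters 5 (9.26%, against 16.6%). Exons held 7 (12.96%, against 12.7%), 5′ untranslated regions 2 and 3′ untranslated regions 1. Start-site peaks were long, with a median of 1314 bp against 469 bp for all peaks within 1 kb. At least 5-fold was reached by 24 of the 54, or 44.4%, against 30.3% of all peaks. The same share was 8 of 12 within 1 kb against 55.3% of all peaks there. At 1 to 10 kb it was 6 of 14 against 20.3%, and over 10 kb away 10 of 28 against 18.0%. Repeats held 5 of the 54 peaks, or 9.26%, against 19.5% of all peaks. Fold values carry no replicate error, so these shares describe the single pooled list.

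**Figure D1:**
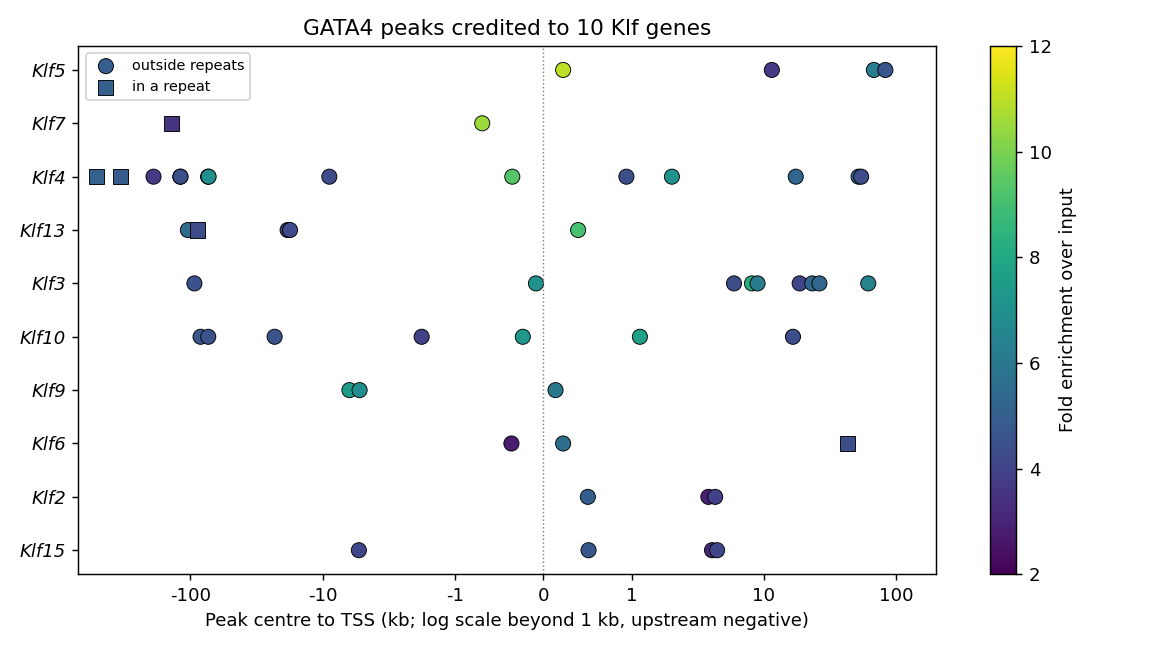
Each point is 1 of 54 GATA4 peaks, placed by the distance of its centre from the TSS in kb (linear within 1 kb, log scale beyond) and coloured by fold enrichment over input, with squares for peaks in repeats and genes ordered by their strongest fold. All 10 genes have a point within 1 kb, and Klf4 and Klf3 have the most points, 14 and 9.

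Promoter sequences of 8 of the 10 genes were found in the RefSeq table of build GRCm38.p6, all but Klf5 and Klf10. They are shown because in 7 of the 10 genes a peak covered, on the deposited mm9 coordinates, the whole stretch from 250 bases before to 50 after the TSS. The exceptions were Klf15, whose peak covered the TSS but not the whole stretch, and Klf6 and Klf7, whose peaks did not cover the TSS. The table's start sites are those of another build and were not compared with the deposited ones. The 250 bases before the start are given 5′ to 3′ on the gene's strand for the 2 genes of this 8 with the strongest peaks over that stretch, Klf4 and Klf13, for the corepressor-binding factor gene Klf3, and for Klf9, with matches to CCGCCC (a GC box) or CACCC on either strand in capitals.
Klf4 (GRCm38.p6, chr4:55532476-55532725, minus strand): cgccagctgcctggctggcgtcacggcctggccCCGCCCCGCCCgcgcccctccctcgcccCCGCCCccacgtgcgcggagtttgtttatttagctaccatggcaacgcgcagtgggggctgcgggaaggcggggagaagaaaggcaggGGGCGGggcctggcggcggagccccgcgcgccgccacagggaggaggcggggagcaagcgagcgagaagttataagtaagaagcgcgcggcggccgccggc
Klf13 (GRCm38.p6, chr7:63938916-63939165, minus strand): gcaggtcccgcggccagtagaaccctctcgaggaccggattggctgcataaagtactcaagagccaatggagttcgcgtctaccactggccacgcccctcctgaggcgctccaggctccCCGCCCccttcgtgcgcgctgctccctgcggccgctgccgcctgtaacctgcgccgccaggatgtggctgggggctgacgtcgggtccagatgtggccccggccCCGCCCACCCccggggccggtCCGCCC
Klf3 (GRCm38.p6, chr5:64803271-64803520, plus strand): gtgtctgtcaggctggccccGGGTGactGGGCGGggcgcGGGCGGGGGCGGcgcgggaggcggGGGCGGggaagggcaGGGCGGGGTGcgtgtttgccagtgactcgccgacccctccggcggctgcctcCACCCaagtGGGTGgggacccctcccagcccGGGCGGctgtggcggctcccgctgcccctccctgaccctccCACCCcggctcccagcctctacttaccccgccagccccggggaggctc
Klf9 (GRCm38.p6, chr19:23140976-23141225, plus strand): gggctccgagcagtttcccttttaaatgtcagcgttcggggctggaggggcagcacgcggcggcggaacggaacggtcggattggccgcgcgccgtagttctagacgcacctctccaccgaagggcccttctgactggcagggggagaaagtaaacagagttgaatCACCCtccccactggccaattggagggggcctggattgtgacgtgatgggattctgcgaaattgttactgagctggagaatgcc

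These stretches were GC-rich and held boxes of the kind that Krüppel-like and Sp factors bind, while GATA letters were found in 1 of the 8 windows. Klf3 had 11 box matches, Klf4 and Klf13 had 4 each, and Klf9 had 1; some matches overlap in a run of the same letters. Over the full window of 250 bases before to 50 after the start, all 8 genes held at least 1 CCGCCC or CACCC, against 69.4% of 32851 promoters in the table. The median GC content was 70.7% in the 8 and 52.7% in all promoters. A GATA site, searched on both strands as the letters AGATAA and the letters TGATAA, and with G in the last place as AGATAG and also as TGATAG, was found in 29.8% of all promoters. The single match among the 8 was in Klf2, at positions 33 to 38 after the start, and is shown in capitals as the reverse strand of AGATAG.
Klf2 (GRCm38.p6, chr8:72319084-72319105, plus strand): ctcagcgagcCTATCTtgccgt
A match is a description of letters in a 300-base window, and the absence of one says nothing of letters outside it.

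Among the members known mainly as activators, Klf5, which marks dividing cells of gut epithelium, had the strongest credited peak of all 10. It lay over the 5′ untranslated region and promoter at chr14:99697508-99698762 (mm9, as are all peak coordinates), covered -402 to 852 bp from the TSS, and reached 11.02-fold. At its summit stood 54 pull-down tags (exact Poisson 95% interval 40.6 to 70.5, counting error only), and its fold ranked 296th of all peaks. The other Klf5 peaks all lay downstream. One in intron 3 of 3, 11.5 kb from the TSS, reached 3.64-fold. Beyond the gene, an intergenic peak 67.8 kb downstream (chr14:99765512-99765838) reached 6.19-fold with 40 tags, and another 82.7 kb downstream reached 4.69-fold. The start-site peak of Klf5 thus had a higher fold than its distal peaks, while the peak at 67.8 kb had the most tags of the distal ones, with counting intervals that overlapped.

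Klf7, a factor known from the developing nervous system, had the second strongest start-site peak but little else. The peak at chr1:64168208-64169103 reached 10.53-fold with 56 tags (42.3 to 72.7). It lay wholly upstream, from -1140 to -245 bp, with its summit at -567 bp, so it did not reach the TSS itself. The only other credited peak lay in an L1 repeat 139 kb upstream, at 3.52-fold.

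Klf4, which acts in differentiation of surface epithelia and goblet cells, had the most peaks, 14, a number matched or passed by 0.86% of protein-coding genes. Its promoter peak at chr4:55544976-55546421 reached 9.31-fold, with its summit 4 bp from the TSS and 61 tags (46.7 to 78.4), the most tags of any Klf peak. Next to it, a peak over intron 2 of 4, centred 942 bp downstream, reached 4.41-fold. Exon 3 of 5 held another, 2.02 kb downstream (chr4:55542910-55543747), at 7.11-fold. Peaks therefore covered the promoter and much of the first part of the gene.

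The distal Klf4 peaks lay on both sides. Upstream, the strongest stood 72.7 kb away (chr4:55617923-55618269) at 6.91-fold with 33 tags, the highest fold of any Klf peak over 10 kb from its TSS, beside one at 73.3 kb and 3.72-fold. A pair at 118.6 and 119.0 kb reached 4.41-fold and 5.51-fold, the latter in a CpG island. Single upstream peaks at 8.91 kb and 189.6 kb reached 4.29-fold and 3.72-fold. Upstream peaks at 335 kb (4.81-fold) and 513 kb (5.08-fold) lay in L1 repeats, and at such distances the nearest gene is only a label. Downstream, peaks at 17.4 kb and 51.9 kb, both in CpG islands, reached 5.23-fold and 5.68-fold, and one at 54.3 kb reached 4.29-fold. The distal peaks of Klf4 thus ran from 3.72-fold to 6.91-fold, all under its promoter peak.

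Klf6 and Klf2 had start-site peaks of lower fold, and at both genes a peak stood on raised input. Klf6, a widely expressed factor induced by tissue injury, had 2 start-site peaks. The one in exon 1 of 4 (chr13:5860777-5861144) reached 5.60-fold with 29 tags. The one in the promoter had more tags, 36, but 2.80-fold, the lowest fold of all 54, and the local input recovered from the authors' ratio was 7.0 scaled tags there against 2.25 in exon 1. Klf2, known for quiescence of endothelium and lymphocytes, had a peak of 1542 bp at chr8:74842696-74844237 with its summit 15 bp from the TSS, at 4.95-fold with 40 tags and an input level of 4.0. Its other peaks, 3.81 and 4.29 kb downstream, reached 2.93-fold and 3.90-fold.

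**Figure D2:**
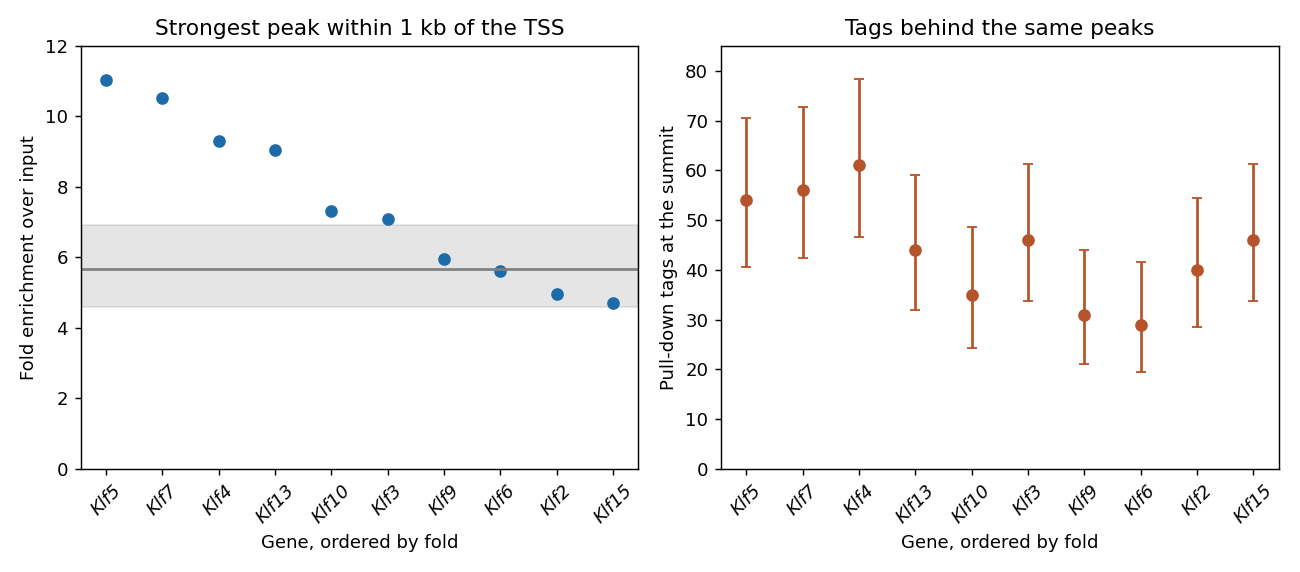
For the strongest peak within 1 kb of the TSS of each gene, the left panel shows fold enrichment over input, with the median (line) and quartiles (band) of 12077 protein-coding genes, and the right panel shows pull-down tags at the summit with exact Poisson 95% intervals. Fold runs from 11.02 at Klf5 to 4.72 at Klf15, while tags are highest at Klf4, with 61, and Klf15 has 46, as many as Klf3.

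Tag counts separated the start-site peaks only in part. By fold, the order of these peaks ran Klf5, Klf7, Klf4, Klf13, Klf10, Klf3, Klf9, Klf6, Klf2 and Klf15. In tags, the intervals of each pair of neighbours in this order overlapped, so tags did not separate neighbours. These intervals leave out the input, so they do not show how firm the order by fold is. The interval of Klf4 (46.7 to 78.4) did not overlap those of Klf9 (21.1 to 44.0) or Klf6 (19.4 to 41.6), and that of Klf7 (42.3 to 72.7) did not overlap that of Klf6. Tags and fold ordered the genes differently where input was high: Klf15 was last by fold, yet its 46 tags equalled those of Klf3. Of the 54 peaks, 33 had a recovered input level within 0.05 of the genome-wide background of 1.98 scaled tags, as did 70.6% of all peaks. The lowest level over all peaks was also 1.98, so this value is a floor and a lower local input could not be seen. At the floor, fold follows the tag count alone. The highest levels were 7.0 and 5.0, in start-site peaks of Klf6 and Klf15, followed by 4.0 at peaks of Klf2, Klf5 and Klf15. The part of input in the lower fold of these genes beyond this arithmetic was not tested.

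**Figure D3:**
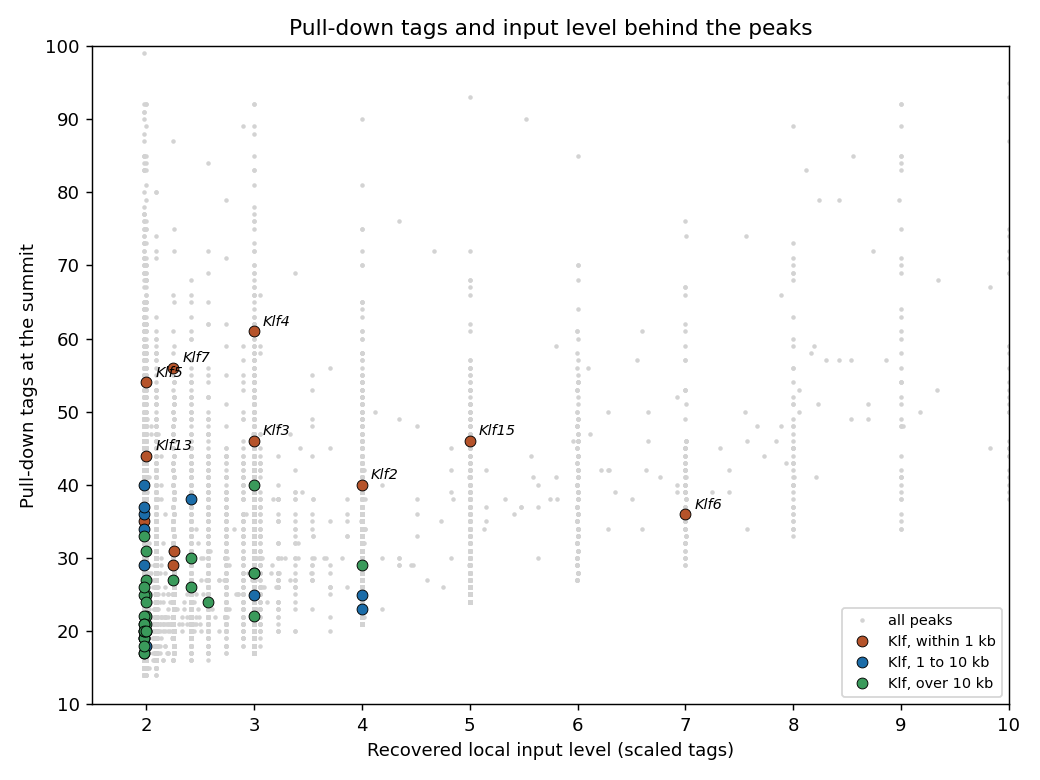
Pull-down tags at the summit are plotted against the recovered local input level in scaled tags for Klf peaks, coloured by distance from the TSS, and for all peaks in grey; the axes leave out 349 of 50869 peaks, none of a Klf gene. Most Klf peaks sit at an input level near 2, the floor of the recovered levels. The labelled points of Klf2, Klf15 and Klf6 at 4.0, 5.0 and 7.0 are peaks centred within 1 kb of the TSS. They have folds of 4.95, 4.72 and 2.80 with 40, 46 and 36 tags.

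Klf3, a repressor that recruits CtBP, had peaks along the whole gene, and its strongest was not at the start site. It had 9 peaks, 6 of them of at least 5-fold, and as many or more were found at 3.18% of protein-coding genes. The promoter peak (chr5:65193790-65195568, 1779 bp) reached 7.08-fold with 46 tags. In intron 1 of 5, a peak 8.13 kb downstream (chr5:65202615-65203163) reached 8.30-fold with 40 tags on an input level of 1.98, the floor. A neighbour at 8.96 kb reached 6.11-fold and one at 5.95 kb reached 4.32-fold. The higher fold in the intron came with fewer tags than at the promoter, where the input level was 3.0, and the tag intervals of the pair (28.6 to 54.5 and 33.7 to 61.4) overlapped.

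Farther along Klf3, peaks in exon 3 of 6 (4.12-fold), in intron 4 of 5 (5.28-fold) and in the 3′ untranslated region (5.31-fold) lay 18.6, 23.2 and 26.3 kb from the TSS. An intergenic peak 61.4 kb downstream (chr5:65256060-65256346) reached 6.47-fold with 31 tags, and another 93.1 kb upstream reached 4.49-fold. All but 1 of the distal peaks of Klf3 were thus inside or downstream of the gene.

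The members that bind Sin3a, a scaffold of histone deacetylases, are Klf9, Klf10 and Klf13, and their strongest peaks lay in different places. Klf9, a target of glucocorticoid and thyroid hormone, had a pair of intergenic CpG island peaks 5.26 and 6.28 kb upstream, at 6.90-fold with 38 tags and 7.50-fold with 36 (chr19:23209966-23210945 and chr19:23209130-23209746). Both had a higher fold than its start-site peak in the 5′ untranslated region (chr19:23215273-23216438), at 5.96-fold with 31 tags, although the intervals of the tags overlapped. All 3 Klf9 peaks reached 5-fold.

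Klf10, induced early by TGF-β, carried a pair of strong peaks around its start. The promoter peak (chr15:38230013-38231384) reached 7.30-fold with 35 tags, and the peak in intron 1 of 3, 1.16 kb downstream (chr15:38228704-38229914) in a CpG island, reached 7.70-fold with 37. They lay less than 1 kb apart. The other 5 peaks of Klf10, from 1.79 kb upstream out to 83.7 kb upstream and 16.6 kb downstream, reached 3.96-fold to 4.72-fold.

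Klf13, a factor known from T cells and heart, had the longest Klf peak, 2732 bp, over exon 1 of 2 at chr7:71082041-71084772. It reached 9.04-fold with 44 tags (32.0 to 59.1). The other credited peaks were all upstream. A pair at 17.6 and 18.4 kb reached 4.27-fold and 3.92-fold, one in a repeat at 88.7 kb reached 4.29-fold, and one at 104.3 kb reached 5.51-fold.

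A stronger GATA4 peak lay inside Klf13 but is credited to another gene. The annotation places 6 more peaks in the single intron of Klf13 and names E030018B13Rik, a protein-coding gene in the annotation, for each, by its nearer TSS. The strongest, at chr7:71041771-71042562, 41.6 kb downstream of the Klf13 TSS, reached 15.9-fold with 78 tags and ranked 39th of all peaks by fold, above every peak credited to a Klf gene. The other 5 reached 3.52-fold to 4.92-fold. A similar case stood at Klf6, where an intergenic peak 16.2 kb upstream of the TSS (chr13:5844334-5844702) reached 11.8-fold and is credited to 1700016G22Rik. In Klf9, a 4.69-fold peak in exon 2 of 2 is credited to Mir1192. Within 10 kb of the start sites recovered from the deposited distances, no peak at the 10 genes was credited elsewhere.

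Klf15, a regulator of amino acid and glucose metabolism, had the lowest strongest fold of the 10 genes. The start-site peak (chr6:90412400-90413866, in intron 1 of 2 by its centre) reached 4.72-fold with 46 tags (33.7 to 61.4) on an input level of 5.0. These values belong to its summit, which lay 1055 bp downstream of the TSS and not at the TSS itself. Peaks in exon 2 of 3, 4.06 and 4.43 kb downstream, reached 3.17-fold and 4.12-fold, and an intergenic peak 5.33 kb upstream reached 4.12-fold. None of its 4 peaks lay over 10 kb away, as was also true of Klf2 and Klf9.

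Distal peaks were more frequent at some members than others. A peak over 10 kb from the TSS was credited to 7 of 10 genes, against 34.7% of protein-coding genes. With repeats left out and at least 5-fold, it was 4 of 10, namely Klf3, Klf4, Klf5 and Klf13, against 7.95%. Both shares rest on the choice of the 10, which were picked with earlier results known. Among the other Klf and Sp genes, a peak over 10 kb from the TSS was also credited to Klf11, Klf12, Klf14, Klf17 and Sp1 to Sp7. None was credited to Klf1, Klf8, Klf16, Sp8 or Sp9. The number of such peaks depends on the space up to the next gene, which was not measured. Median fold over the 28 distal Klf peaks was 4.52, against 4.16 over all 23054 distal peaks.

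Among the rest of the family, the share of genes with a start-site peak was near that of all protein-coding genes. Of the 16 other Klf and Sp genes, 12 had a credited peak within 10 kb, against 64.4% of protein-coding genes, and 10 had one within 1 kb, against 57.4%. The strongest were at Sp2 (11.2-fold, 300 bp downstream of the TSS), Sp7, the factor of bone formation (10.5-fold, 10.7 kb upstream), Sp1 (8.19-fold, 200 bp downstream) and Sp4 (6.93-fold, 342 bp upstream). Klf8 was the nearest gene of no peak. Klf12, Klf17 and Sp3 had none within 10 kb, with their nearest at 99.9, 15.7 and 57.9 kb. At Sp3 this depended on the naming, since a 9.89-fold peak 601 bp from its TSS (chr2:72816697-72819108) is credited to the antisense transcript Sp3os. The median strongest fold was 8.00 over the 10 Klf genes and 5.91 over the 15 others with a credited peak, where Sp3 counts with 4.69-fold. The 10 were picked with earlier results known, so the medians are not a fair comparison, and no test was run between them.

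**Figure D4:**
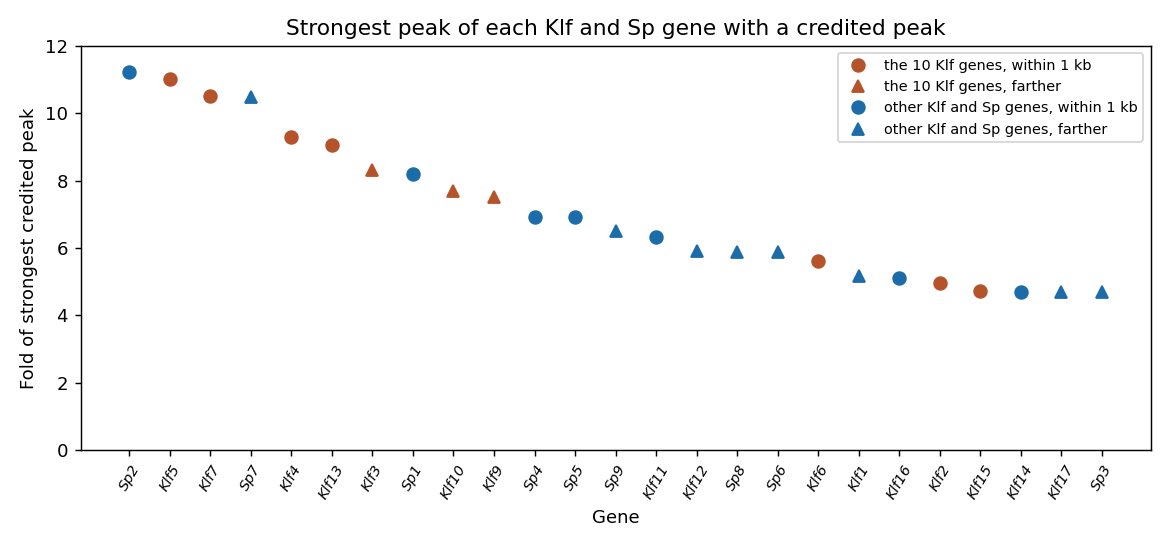
The fold of the strongest credited peak is shown for each Klf and Sp gene that has one, in falling order, with circles where that peak is centred within 1 kb of the TSS and triangles where it is farther. Sp2 (11.2-fold) and Klf5 (11.02-fold) lead, and the 10 Klf genes described here are spread from Klf5 to Klf15 (4.72-fold).

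Genes for proteins that Krüppel-like factors work with also had start-site peaks throughout. All 16 partner genes (Ctbp1, Ctbp2, Sin3a, Hdac1, Hdac2, Ep300, Crebbp, Kat2b, Wwp1, Fbxw7, Wdr5, Smad3, Smad4, Yap1, Tead1 and Tead4) had a credited peak within 1 kb, against 57.4% of protein-coding genes. The list was chosen with earlier results of these data known. This share and the folds below therefore do not stand for partner genes in general. The strongest were at Yap1, the Hippo pathway coactivator (9.04-fold, in an exon 222 bp downstream of the TSS), Smad3, a TGF-β signal transducer (8.39-fold at the promoter), and Sin3a (8.30-fold in an intron 1.12 kb downstream). The corepressor genes Ctbp1 and Ctbp2 reached 4.32-fold and 7.30-fold. The median strongest fold over the partners was 6.51, against 5.51 over the 15498 protein-coding genes with a credited peak.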

How the data were processed

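Chromatin immunoprecipitation and sequencing gave 2 GATA4 pull-down libraries and 1 input library. The submitters' processing notes name Bowtie2, MACS2, HOMER and build mm9. MACS2 was version 2.1.0.20140616, called on both pull-downs pooled at a q-value limit of 0.05, with 1 tag kept per position, per the file headers. The deposited pileup is a coverage signal in scaled tags, and the deposited fold is the caller's ratio of pull-down to local input, each with 1 added. The −log10 q-value column of the deposited table had lost its name. The score in the authors' HOMER table equalled 10 times that column's values, cut to whole numbers, in all 50869 peaks.

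Pileup was divided by the scaling factor of 0.594 (every value came within 0.0084 of a whole tag), and input was recovered as pileup plus 1 divided by fold, minus 1. TSS positions were recovered from peak centres and deposited distances. Shares over genes were taken over the 21031 protein-coding entries of the RefSeq gene table (GRCm38.p6) that have an NM transcript. That table gave gene identity and type, not peak positions. Promoter sequences, motif shares and GC content came from RefSeq promoters of the same build. Counting was tested on simulated data. Python 3.11.15, pandas 2.3.3 and scipy 1.17.1 were used. The rule for naming was all 10 members, every peak of the 3 with the highest fold and the 2 with most peaks, and from the lists the 4 or 3 strongest and those with none. Members and lists were chosen with earlier results of these data known. Poisson intervals of tags cover counting error only. The binomial interval of a median reflects the spread of fold among its peaks, not counting or replicate error.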

Additional observations from a re-analysis of the deposited data

How the results depend on the processing

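The 54 Klf peaks fell to 27 with a −log10 q-value of at least 5, to 24 with a fold of at least 5, and to 26 when every peak within 10 kb of the TSS was taken whichever gene it is credited to. Their median fold of 4.72 (exact binomial 95% interval 4.32 to 5.51) became 6.19, 6.69 and 5.78 in those settings, and 5.78 with only credited peaks within 10 kb, as each setting removes low or distant peaks by construction. The interval takes the 54 peaks as independent, though 14 belong to Klf4 and 9 to Klf3. It served only as a yardstick for the settings and holds no replicate error. In a setting chosen after seeing the data, merging peaks of one gene less than 1 kb apart left 42 regions. The other 71 values recomputed in planned settings stayed within 1.5 times for counts, within the interval for medians, or identical for the strongest fold of a gene. Klf2 and Klf15 have no value at 5-fold or more. No paired analysis was possible because both pull-downs were pooled before deposit, so no library could be left out either.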

Other observations

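Within 50 kb of the Klf15 TSS, 3 further peaks were credited to neighbours: a 5.71-fold peak 23.7 kb upstream to Cfap100, and peaks of 3.29-fold and 2.93-fold at 44.6 and 46.6 kb downstream to Aldh1l1. The gene E030018B13Rik, named for the peaks in the intron of Klf13, was the nearest gene of 15 peaks in all.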
